A study of Mus musculus with 13 samples.

Results

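The 8 aortas described here are the 4 with the highest and the 4 with the lowest smooth muscle content among 13 aortas from AngII-infused ApoE-/- mice. They were chosen from the measured values, whatever virus the mouse had received. For each aorta a smooth muscle score was taken as the mean log2 CPM (CPM, the counts of a gene scaled to a common library total, here corrected by the TMM factors of edgeR) of Myh11, Acta2 and Cnn1, and the aortas were ranked by it. Because these values chose the members, every high against low difference below is a description of these 8 aortas, and no p-value is attached to it.

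The study infused AngII into ApoE-/- mice to produce abdominal aortic aneurysm and asked what overexpression of FAM3A changes in the aortic wall. Total RNA of 13 aortas was sequenced, 6 labelled Ad-sham and 7 labelled Ad-FAM3A. The labels number them as separate aortas without saying how litters or batches fell, so the p-values below measure only the spread between these samples. All 13 mice lacked ApoE, received AngII at 1000 ng/kg/min from subcutaneous pumps placed at 10 weeks of age for up to 28 days, and received an adenovirus by weekly tail vein injection. The Ad-sham virus was the empty vector, and the Ad-FAM3A virus carried FLAG-tagged mouse Fam3a, followed by mCherry, behind the EF1A promoter. That promoter is active in many cell types, so the vector was not designed for smooth muscle alone. The group has no uninfused or uninjected aortas, and the study's methods describe harvest of the entire aorta and use of mice of both sexes, without giving the sex of the sequenced mice. Each aorta gave 1 bulk RNA sample, so fewer smooth muscle cells and less contractile RNA per cell cannot be told apart in any value below.

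The media of the aorta is built of layers of vascular smooth muscle cells (VSMCs) between elastic lamellae. In their contractile state these cells make smooth muscle myosin, actin, calponin and the proteins that anchor and regulate them, under the transcription factor SRF and its partner myocardin, and they also lay down elastin, collagens and basement membrane. In aneurysm the media is known to thin and to lose elastic lamellae, while leukocytes enter the wall and VSMCs can leave the contractile state.

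The score fell stepwise across the 13 aortas, and its widest step lay within the low aortas, between Ad-sham3 and Ad-sham1. The 4 high aortas, which are always listed here in falling order of score, were Ad-FAM3A4, Ad-FAM3A5, Ad-sham2 and Ad-FAM3A1, with scores of 12.02, 11.56, 11.45 and 11.33. The 5 middle aortas, Ad-FAM3A2, Ad-sham4, Ad-sham5, Ad-FAM3A3 and Ad-sham6, had scores of 11.32, 11.17, 10.74, 10.66 and 10.37. The 4 low aortas, Ad-FAM3A7, Ad-sham3, Ad-sham1 and Ad-FAM3A6, had scores of 10.26, 10.20, 9.35 and 8.91. Both viruses were thus present at each end. The high mean was 11.59 ± 0.30 (SD, n = 4) and the low mean 9.68 ± 0.66 (SD, n = 4), a difference of 1.91 on the log2 scale or 3.75-fold. Just inside the upper limit, Ad-FAM3A1 exceeded Ad-FAM3A2, just outside it, by 0.0118, and at the lower limit Ad-sham6 exceeded Ad-FAM3A7 by 0.107. Neither limit therefore marks a gap.

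**Figure D1:**
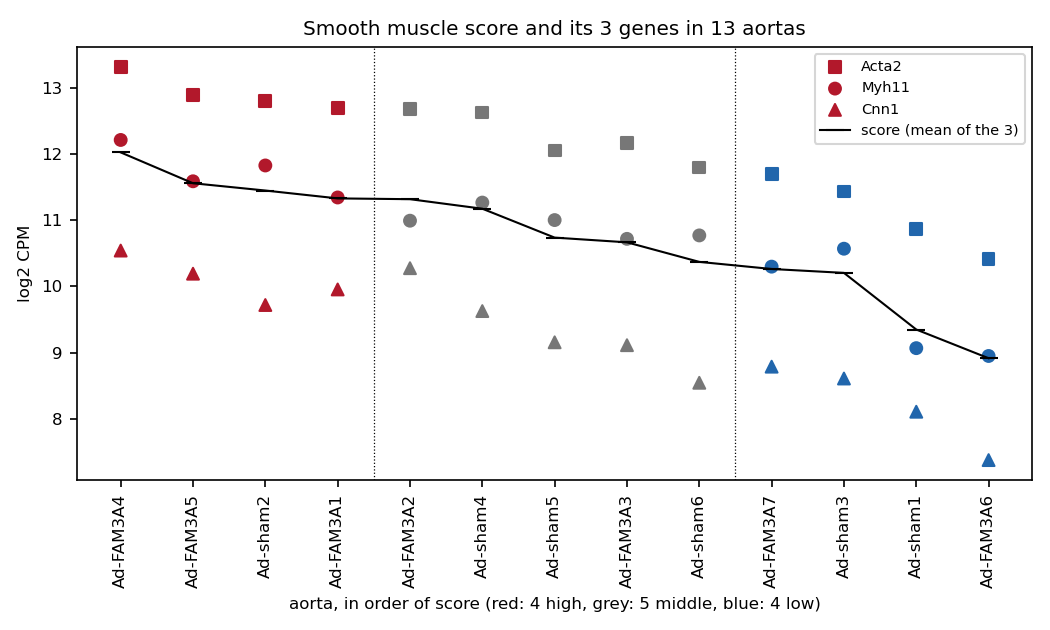
Smooth muscle score (black line) and its genes Acta2 (squares), Myh11 (circles) and Cnn1 (triangles) on the log2 CPM scale in each of the 13 aortas, ranked by score, with the high aortas in red, the middle ones in grey and the low ones in blue, and dotted lines at the limits of the 4 highest and 4 lowest. The score runs from 12.02 in Ad-FAM3A4 to 8.91 in Ad-FAM3A6 with no gap at either limit, and both viruses occur at both ends.

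The genes of the score are given in linear units, and each ordered the aortas somewhat differently. Myh11, the smooth muscle myosin heavy chain, ranged from 2595 to 4739 CPM in the high aortas and from 494 to 1518 CPM in the low aortas. Acta2, smooth muscle α-actin, ranged from 6602 to 10205 CPM against 1368 to 3331 CPM. Cnn1, calponin 1, an actin-binding inhibitor of the myosin ATPase, ranged from 842 to 1489 CPM against 166 to 441 CPM. In each gene the highest of the low aortas lay below the lowest of the high aortas, and since these genes chose the members this is only a description. The middle aorta Ad-FAM3A2, at 1238 CPM of Cnn1, lay above 3 of the 4 high aortas in that gene. All 3 genes were abundant in every aorta, at the low end too.

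Total counts assigned to genes were 14481179 to 19797407 per aorta over the 13, so that 3 counts correspond to 0.152 to 0.207 CPM, and 15811 of 54532 listed genes passed the filter on low counts. Mitochondrially encoded transcripts took 9.75% to 12.2% of the counts in the high aortas and 10.9% to 17.7% in the low aortas, and the part of this share in the differences below was not tested. Xist had 0 to 6 counts in every aorta. Fam3a itself ranged from 17.9 to 30.3 CPM over the 13 aortas, with a log2 fold change of -0.03 ± 0.16 (SE) for Ad-FAM3A against Ad-sham (adjusted p = 0.971, edgeR quasi-likelihood test), so the label was not visible in the RNA of the delivered gene. Apoe reads remained at 3.57 to 20.5 CPM, and which part of the gene they come from cannot be seen in counts per gene.

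The virus label, which the ranking did not use, was tested against the score. The score averaged 10.87 ± 1.04 (SD, n = 7) in Ad-FAM3A and 10.55 ± 0.75 (SD, n = 6) in Ad-sham, and 5 of 7 Ad-FAM3A aortas lay above the Ad-sham median. The difference of 0.32 was within the spread among the aortas (exact permutation test, two-sided, over 1716 splits, p = 0.537, where the smallest p this design can give is 0.00117). Without Ad-sham1 the difference was 0.0809 and without Ad-FAM3A6 it was 0.646, so single low aortas set much of its size.

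Across the other 15808 genes, the high aortas had higher mean levels of most contractile and matrix genes, and the low aortas had higher mean levels of lymphocyte, interferon response and sympathetic nerve genes. A gene was counted as higher where all 4 high aortas lay above all 4 low aortas and the means differed by more than 1 on the log2 scale, and as lower where the reverse held. By this rule 585 genes were higher (3.70% of those fitted) and 472 were lower (2.99%), while 48.8% of all genes had a positive difference and the median over all genes was -0.01. The number of lower genes depended on single aortas, with 1065 without Ad-FAM3A1 and 820 without Ad-sham3. With Ad-FAM3A2 in place of Ad-FAM3A1, which differ by 0.0118 in score, 548 genes were higher and 857 lower. With libraries scaled to their totals alone, Ad-sham6 took the place of Ad-FAM3A7 among the low aortas. There 381 genes were higher, and the share of higher among the counted genes was 42.0% in place of 55.3%. With Ad-FAM3A2 in place of Ad-FAM3A1 that share was 39.0%.

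Read against that background, the lists of genes of known role differed widely in their share of counted genes. Of 75 fitted genes of smooth muscle lists other than the score genes, 36 were higher (48%) and 1 lower, with a median difference of 1.19. Of 128 matrix genes, 26 were higher (20.3%) and 0 lower, with a median of 0.65. Of 89 inflammatory genes, 6 were lower (6.74%) and 0 higher, with a median of -0.64. Of 143 genes of metabolism and ribosome, 0 were higher and 0 lower, with a median of -0.33. Since VSMC genes chose the aortas, the first of these shares says only that genes of the same cell type moved with the 3 that were used.

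**Figure D2:**
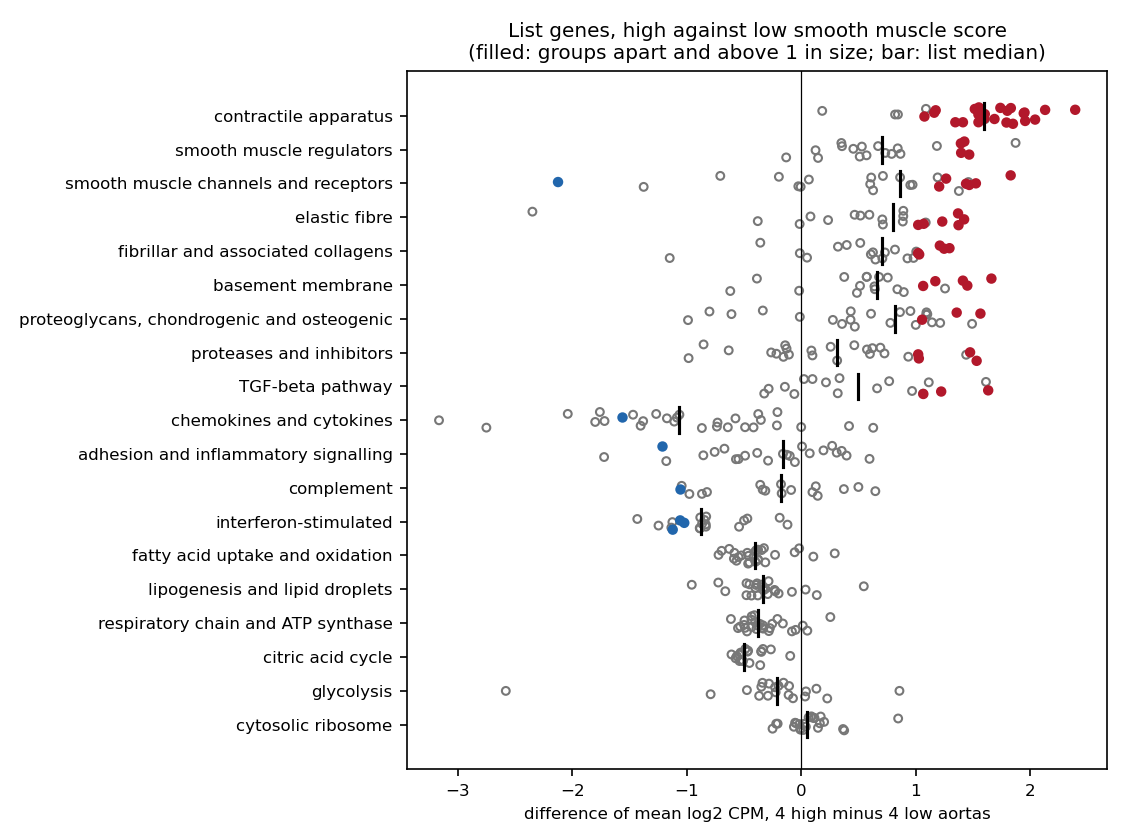
High minus low difference (log2 CPM, mean of 4 against mean of 4 aortas) of each member of the gene lists, with genes counted as higher filled red, those counted as lower filled blue and the median of each list as a bar. Members of the contractile list lie above 0 and reach 2.39, the matrix lists lie mostly above 0, and the interferon and citric acid cycle lists lie below 0.

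Most genes of the contractile apparatus were higher. Of 30 members fitted, 25 were higher, 0 lower, and all 30 had a positive difference, up to 2.39 for Ppp1r14a, with a median of 1.59 (3.02-fold). Ppp1r14a, which encodes the myosin phosphatase inhibitor CPI-17, was at 7.19, 6.07, 7.24 and 6.12 log2 CPM in the high aortas and at 4.62, 5.65, 3.21 and 3.56 in the low aortas. Lmod1, a leiomodin that nucleates actin filaments, was at 9.39, 8.71, 8.93 and 8.43 against 7.25, 7.61, 6.28 and 5.79. Myl9, the regulatory myosin light chain, was at 11.15, 10.08, 11.02 and 10.46 against 9.01, 9.58, 8.06 and 7.89. In these 3 genes Ad-sham3 was the highest of the low aortas and Ad-sham1 or Ad-FAM3A6 the lowest, and the mean differences were 2.39 (5.25-fold), 2.13 (4.38-fold) and 2.04 (4.12-fold).

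Other parts of the contractile machine followed the same order. Smoothelin (Smtn), a marker of contractile VSMCs, averaged 8.95 ± 0.34 (SD, n = 4) in the high and 7.0 ± 0.78 (SD, n = 4) in the low aortas, and the Z-line protein gene Pdlim3 averaged 7.99 ± 0.29 (SD, n = 4) in the high and 6.04 ± 0.56 (SD, n = 4) in the low aortas. The tropomyosin gene Tpm2 was higher by 1.94 and Tpm1 by 1.55, and filamin A (Flna), which crosslinks actin, by 1.74. The kinase that phosphorylates the regulatory light chain, Mylk, was at 9.96, 9.62, 9.47 and 9.41 in the high aortas and at 8.47, 8.50, 7.80 and 7.49 in the low aortas, which did not overlap. Vinculin (Vcl), which ties actin to adhesions, was higher by 1.35, and integrin α8 (Itga8) by 1.83. The middle aortas fell between the high and low means in 29 of the 30 genes. Positive members that overlapped or fell short of the limit included Myl6 at 1.61, Filip1l at 1.09, Cnn2 at 0.84 and Synm at 0.82. The smallest difference of the list was 0.18. The median of the list was 1.36 between the high and low Ad-sham aortas (1 against 2) and 1.67 between the high and low Ad-FAM3A aortas (3 against 2).

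Tagln, the gene of transgelin (SM22α) and a defining contractile marker, was at 5.47, 5.67, 4.60 and 5.0 in the high aortas and at 4.38, 3.45, 3.70 and 3.01 in the low aortas. Its groups did not overlap and the means differed by 1.55 (2.92-fold). Of its span 58.0% is shared with Pcsk7 and Gm48529, and since the sources used here do not give the strand setting for counting, reads in shared exons may have been dropped or given to another gene. In all, 276 of 621 named genes overlap another annotated gene, 58 of them over more than 50% of their span, among them Kcnmb1, Srf, Synm, Filip1l, Ogn, Cxcl10 and Nefl, and their levels are uncertain for the same reason.

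Contractile genes are known to be driven through the CArG box, the element bound by SRF, so the promoters of 4 genes of this group are shown. The sequences are from RefSeq on GRCm38.p6 and hold the 250 bases before the annotated start site, 5′ to 3′ on the strand of the gene. Capitals mark the CArG box, found by script, either exact or with 1 of its 6 middle bases replaced by G or C. Acta2 (chr19:34255374-34255623, minus strand) holds 2 of the relaxed form, at -84 and -34 from the start. Myl9 (chr2:156775214-156775463, plus strand) holds an exact box at -161 and a relaxed one at -99. Vcl (chr14:20929148-20929397, plus strand) holds an exact box at -227. Cnn1 (chr9:22099003-22099252, plus strand) has no match in this window.
Acta2: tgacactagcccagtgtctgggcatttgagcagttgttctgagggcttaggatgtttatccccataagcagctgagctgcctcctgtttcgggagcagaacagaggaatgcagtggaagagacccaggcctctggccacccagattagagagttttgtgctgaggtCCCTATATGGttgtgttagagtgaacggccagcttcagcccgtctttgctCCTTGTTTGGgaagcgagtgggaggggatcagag
Myl9: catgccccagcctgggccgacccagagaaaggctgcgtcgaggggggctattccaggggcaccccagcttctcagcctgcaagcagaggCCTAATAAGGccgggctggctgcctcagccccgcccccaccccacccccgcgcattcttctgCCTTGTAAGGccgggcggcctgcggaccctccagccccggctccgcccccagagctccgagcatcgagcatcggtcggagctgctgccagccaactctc
Vcl: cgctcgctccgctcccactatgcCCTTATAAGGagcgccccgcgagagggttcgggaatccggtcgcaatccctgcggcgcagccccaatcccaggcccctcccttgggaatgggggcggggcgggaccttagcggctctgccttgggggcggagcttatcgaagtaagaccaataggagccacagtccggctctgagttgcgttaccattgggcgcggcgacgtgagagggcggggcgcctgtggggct
Cnn1: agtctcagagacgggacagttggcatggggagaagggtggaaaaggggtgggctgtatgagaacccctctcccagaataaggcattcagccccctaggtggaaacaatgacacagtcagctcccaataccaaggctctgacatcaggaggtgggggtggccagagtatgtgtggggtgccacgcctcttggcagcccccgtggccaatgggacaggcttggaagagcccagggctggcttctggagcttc

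Counted over windows from 250 bases before to 50 bases after the start, which reads the same on both strands for this box, an exact CArG box occurred in 6 of 27 contractile and score genes with a RefSeq promoter (22.2%). It occurred in 3.62% of 414 higher genes, in 1.52% of 330 lower genes, in 1.63% of 11483 fitted genes and in 1.81% of all 27025 genes with a promoter. With the relaxed form the shares were 33.3%, 15.9%, 13%, 10.9% and 11.3%. A match is a description of the letters and not evidence that SRF binds there, and boxes outside these windows were not searched. Myh11 and Tagln were not among the promoters used here.

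Regulators of the contractile state differed less than the contractile genes themselves. Of 20 fitted, 4 were higher, 0 lower and 19 positive, with a median of 0.70, which was 0.47 with Ad-FAM3A2 in place of Ad-FAM3A1. Myocd, which encodes myocardin, was at 7.20, 7.59, 5.53 and 6.41 in the high aortas and at 5.74, 4.66, 4.41 and 4.42 in the low aortas. Its mean was 1.87 higher (3.66-fold), but Ad-sham2 among the high aortas lay below Ad-FAM3A7 among the low ones, so the groups overlapped. Srf differed by 0.84, with the groups separated but the difference under the limit. Heyl, a transcription factor of the Notch pathway, was at 7.05, 6.37, 7.11 and 6.71 against 5.99, 5.94, 4.90 and 4.53, and Gata6, which maintains VSMC differentiation, was at 6.46, 6.26, 5.87 and 6.19 against 5.23, 4.89, 4.73 and 4.34. These 2 were separated in every aorta, with differences of 1.47 and 1.40, as were Tead3 at 1.43 and the actin regulator Kank1 at 1.39. Klf4, the factor that represses contractile genes when VSMCs change state, was at 6.81, 6.32, 5.93 and 6.47 against 5.45, 6.14, 5.48 and 5.52, a positive difference of 0.73 with overlapping groups. The mean of the myocardin-related cofactors Mkl1 and Mkl2 differed by -0.13 and 0.13.

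Channels, receptors and cGMP signalling genes of smooth muscle showed 7 higher and 1 lower of 25, with 19 positive, 6 negative and a median of 0.86. Kcnmb1, the smooth muscle β-subunit of the BK potassium channel, was at 7.60, 7.65, 7.28 and 6.98 in the high aortas and at 6.42, 5.61, 5.40 and 4.76 in the low aortas, a difference of 1.83 (3.55-fold) with no overlap, although its whole span lies within Kcnip1. The pore subunit of that channel, Kcnma1, was higher by 1.21, and the L-type calcium channel genes Cacna1c and Cacnb2 were higher by 1.27 and 1.53. The cGMP-dependent kinase Prkg1 was higher by 1.47, and Pde5a, which degrades cGMP, by 1.44. The α1D-adrenergic receptor Adra1d differed by 1.46 with overlap. Of the 6 negative genes, Casq2 differed by -1.38 and Adra1a by -0.71, and neither was counted.

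Agtr1a, the AngII type 1a receptor and so the receptor of the infused peptide, went the other way. It was at 1.53, 2.11, 2.75 and 3.82 log2 CPM in the high aortas, at 2.35, 2.69, 5.70, 3.97 and 4.98 in the middle aortas and at 4.27, 4.96, 5.19 and 4.28 in the low aortas. The highest of the high aortas, Ad-FAM3A1, lay below the lowest of the low aortas, and the high mean was 4.36-fold lower (difference -2.12). The middle aortas spanned both ranges, with Ad-FAM3A2 and Ad-sham4 near the high aortas and Ad-sham5 and Ad-sham6 near or above the low ones. Between the virus labels its log2 fold change was -1.25 ± 0.56 (SE), with an unadjusted p of 0.0417 and an adjusted p of 0.810 (edgeR quasi-likelihood test). Without Ad-FAM3A1, 2 members of the list were lower, and without Ad-sham3, 11 were higher.

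**Figure D3:**
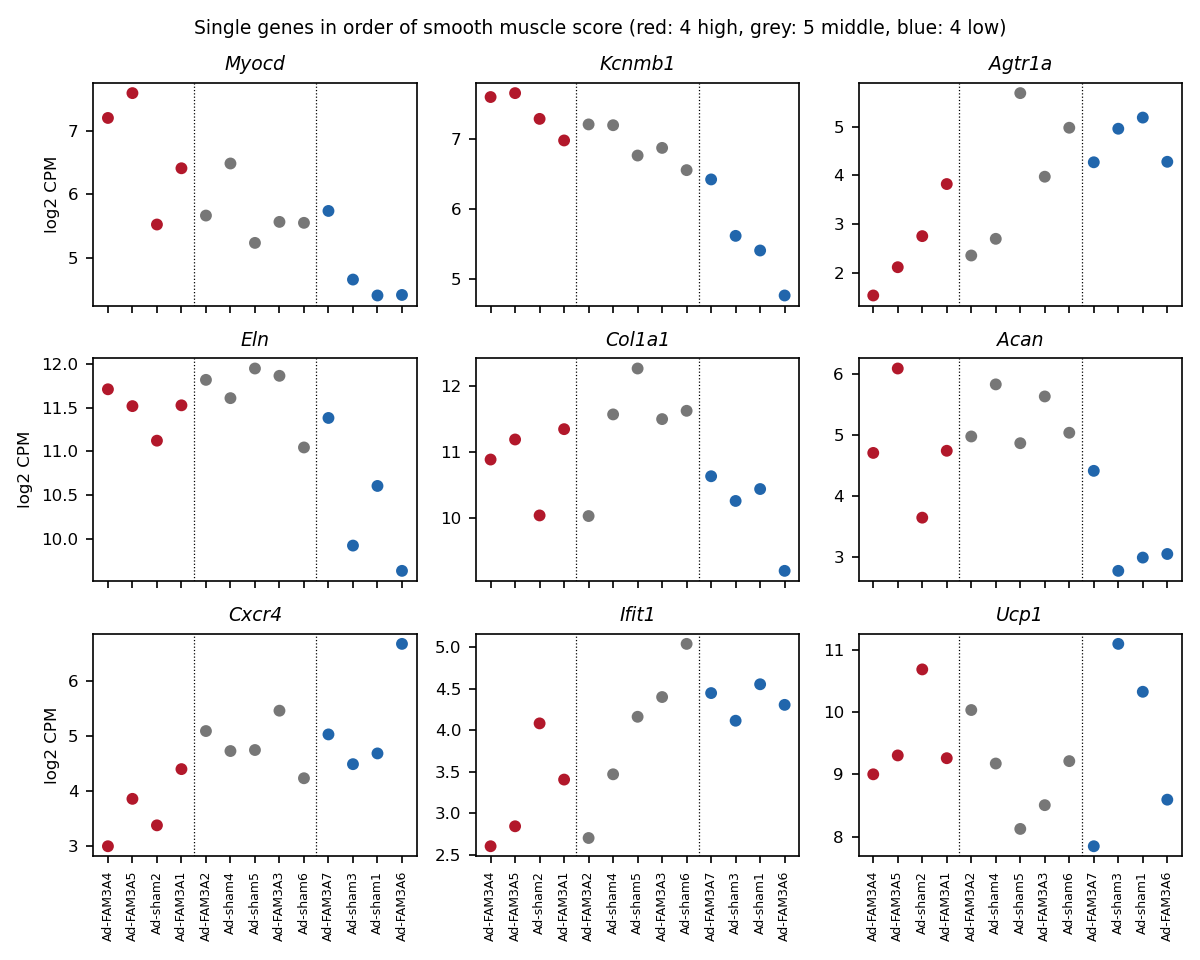
Log2 CPM in every aorta for 9 genes, plotted against the rank of the smooth muscle score, with the 4 high aortas in red, the 5 middle ones in grey and the 4 low ones in blue. Myocd and Kcnmb1 decline with rank, Agtr1a, Cxcr4 and Ifit1 are lower in the high than in the low aortas, Eln, Col1a1 and Acan have their highest mean in the middle aortas, and Ucp1 shows no order.

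Matrix genes had mostly positive differences, but, unlike the contractile genes, many peaked in the middle aortas. In each matrix list the mean of the low aorta Ad-FAM3A7 lay above that of the high aorta Ad-sham2. In the elastic fibre list 6 of 20 were higher and 0 lower, with a median of 0.80. Mfap4, a microfibril-associated protein that binds elastin, was at 8.46, 8.26, 8.24 and 8.34 in the high aortas, at 8.95, 8.89, 8.54, 7.80 and 7.75 in the middle aortas and at 7.79, 7.15, 6.71 and 5.96 in the low aortas. The high aortas differed little among themselves while the low ones spread from Ad-FAM3A7 down to Ad-FAM3A6, and the means differed by 1.42 (2.68-fold). The latent TGF-β binding proteins Ltbp4 and Ltbp1 were higher by 1.37 and 1.37, the crosslinking enzyme Loxl1 by 1.23, fibulin-4 (Efemp2), which assembles elastic fibres, by 1.07, and Emilin1 by 1.02.

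Eln, the elastin gene, was at 11.71, 11.52, 11.12 and 11.53 in the high aortas, at 11.82, 11.61, 11.95, 11.87 and 11.05 in the middle aortas and at 11.38, 9.92, 10.60 and 9.63 in the low aortas. Its mean was 1.09 higher in the high than in the low aortas, but Ad-FAM3A7 lay above Ad-sham2, and 4 of the 5 middle aortas lay above the mean of the high aortas. Fibrillin-1 (Fbn1) differed by 0.52, fibulin-5 (Fbln5) by 0.89 and lysyl oxidase (Lox) by 0.71, each with the middle mean above both others. That held for 12 of the 20 elastic fibre genes, against 26.9% of all genes. Fbn2, which encodes fibrillin-2, went the other way and had the largest difference of the list in size. It was at -3.02, -1.26, -3.02 and -0.88 in the high aortas, where -3.02 stands for 0 counts, and at 1.29, -0.18, -0.94 and 1.06 in the low aortas, a difference of -2.35 at low levels, with Ad-FAM3A1 just above Ad-sham1. The count of 6 higher was 3 without Ad-FAM3A6, and 1 gene of the list was lower without Ad-FAM3A1, without Ad-sham1 or with Ad-FAM3A2 in place of Ad-FAM3A1.

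Collagens and their processing enzymes had 5 higher of 21, 0 lower and a median of 0.71. Col6a2, a chain of the microfibrillar collagen VI, was at 9.39, 9.14, 8.75 and 8.93 against 8.16, 8.33, 7.74 and 6.81 and Col6a1 at 9.04, 8.76, 8.47 and 8.80 against 8.11, 8.12, 7.77 and 6.99. In both chains the 4 high aortas lay above the 4 low ones, with differences of 1.30 and 1.02. The collagen chaperone Serpinh1 was higher by 1.03 and the prolyl hydroxylase subunit P4ha2 by 1.21. The fibrillar collagens differed less, with 0.73 for Col1a1, 0.82 for Col1a2 and 0.32 for Col3a1, and each of these 3 was highest in the middle aortas, while Col11a1, a fibrillar chain of cartilage, differed by -1.15 with overlap. Col1a1 was at 10.89, 11.19, 10.05 and 11.35 in the high, 10.04, 11.57, 12.27, 11.50 and 11.63 in the middle and 10.64, 10.26, 10.45 and 9.21 in the low aortas. The count for this list was 1 without Ad-FAM3A6, 3 without Ad-FAM3A4 and 10 without Ad-sham2. Its median was 0.10 between the high and low Ad-sham aortas and 0.93 between the high and low Ad-FAM3A aortas, a difference that was not tested.

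Basement membrane genes, which surround each VSMC, had 5 higher of 20, 0 lower and a median of 0.66, with the middle mean above both others in 5. Col4a6, a chain of the smooth muscle collagen IV network, was at 7.25, 7.46, 7.03 and 6.83 against 6.34, 5.77, 5.27 and 4.55. Laminin β2 (Lamb2) was at 9.71, 9.91, 9.09 and 9.39 against 8.57, 8.54, 7.77 and 7.41, and perlecan (Hspg2) at 10.76, 10.76, 10.08 and 10.32 against 9.87, 9.84, 8.73 and 8.80. All 4 high aortas exceeded all 4 low aortas in each, with differences of 1.66, 1.45 and 1.17. Laminin α5 (Lama5) was higher by 1.41 and integrin β1 (Itgb1) by 1.07. The more general collagen IV chains Col4a1 and Col4a2 differed by 0.76 and 0.84, separated but under the limit. The count of 5 was 1 with libraries scaled to their totals alone and 1 with 5 aortas per end.

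Among 24 proteoglycan, cartilage and bone matrix genes, 3 were higher and 0 lower, with a median of 0.82 and the middle mean above both others in 15. Hapln1, which links hyaluronan to proteoglycans, differed by 1.57, and the small leucine-rich proteoglycans Ogn and Prelp by 1.36 and 1.06. Acan, aggrecan of cartilage, was at 4.71, 6.09, 3.64 and 4.74 in the high aortas, at 4.98, 5.83, 4.87, 5.63 and 5.04 in the middle aortas and at 4.41, 2.77, 2.99 and 3.05 in the low aortas. Its mean was 1.49 higher in the high aortas, with overlap between Ad-sham2 and Ad-FAM3A7, and the middle aortas reached the level of the high ones. Matrix Gla protein (Mgp), an inhibitor of calcification, was highest in the middle aortas, at 11.11, 11.36, 11.10, 10.93 and 11.27, against 10.78, 9.75, 10.60 and 10.76 in the high and 9.84, 9.18, 9.04 and 9.26 in the low aortas. Of genes used as markers of bone and cartilage fate, Spp1 (osteopontin) differed by -0.80, Runx2 by -0.34 and Sox9 by 0.43, all with overlap. The count of 3 was 9 without Ad-sham2, 8 without Ad-FAM3A7 and 1 with Ad-FAM3A2 in place of Ad-FAM3A1. It was 0 with libraries scaled to their totals alone, with at least 10 counts required in every aorta, or with 5 aortas per end.

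Proteases and their inhibitors were divided. Of 25 fitted, 4 were higher, 0 lower, 16 were positive and the median was 0.31. Adamts1, which cleaves versican and aggrecan, was at 8.97, 8.56, 7.51 and 8.26 in the high aortas against 6.88, 6.86, 7.11 and 6.54 in the low aortas, and Adamts8 was at 5.79, 5.15, 5.54 and 5.49 against 4.15, 4.71, 3.39 and 3.59. Neither overlapped, with differences of 1.48 and 1.53, and Adamts2 and the stromelysin Mmp3 were higher by 1.02 and 1.03. The gelatinases differed little, with 0.31 for Mmp2 and -0.26 for Mmp9, as did the macrophage elastase Mmp12 with -0.11. Mmp13, a collagenase, had its highest values in the middle aortas, at 1.06, 2.75, 1.48, 4.19 and 2.47, against 0.17, 0.53, -0.72 and 0.53 in the high and 1.18, 1.01, 0.93 and 1.33 in the low aortas. Timp3, the matrix-bound inhibitor, differed by 0.94 with overlap. The count of 4 was 2 without Ad-FAM3A5 or without Ad-FAM3A6.

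In the TGF-β pathway, which drives matrix synthesis in VSMCs, 3 of 18 genes were higher and 0 lower, with a median of 0.50. The ligand genes Tgfb3 and Tgfb2 differed by 1.22, with no overlap, and 1.11, with overlap, while Tgfb1 differed by 0.02. The receptors Tgfbr1 and Tgfbr2 differed by 0.77 and -0.28. The inhibitor Smad6 was at 6.22, 5.94, 6.16 and 6.09 against 5.03, 4.80, 4.31 and 3.74, with a difference of 1.63 and no overlap, and Smad3, the mediator of the canonical response, differed by 0.22. The target gene Ctgf was at 11.53, 11.85, 9.95 and 11.51 against 10.49, 8.46, 9.98 and 9.46, where Ad-sham2 lay below Ad-FAM3A7, and the target Tgfbi was higher by 1.07. Without Ad-sham2, 8 genes of the list were higher with a median of 0.77, and with Ad-FAM3A2 in place of Ad-FAM3A1, 1 was higher.

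Inflammatory genes had mostly negative differences, with few separated in every aorta. Of 34 chemokines, cytokines and their receptors, 29 passed the filter on low counts and 27 had a negative difference, with a median of -1.06. Of the 29, 1 was lower, near the share of 2.99% among all genes fitted. Cxcr4, the receptor of CXCL12 on leukocytes, was at 2.99, 3.86, 3.37 and 4.40 in the high aortas and at 5.03, 4.49, 4.68 and 6.67 in the low aortas, a difference of -1.56 (2.95-fold lower) with no overlap. Il6 was at -2.42, -2.34, -1.45 and 0.11 against 2.75, -2.0, 3.18 and 0.97, where Ad-sham3 lay at the level of the high aortas. Cxcl13, which attracts B cells, was at 1.91, 1.87, 2.26 and 3.61 against 6.12, 3.60, 5.31 and 7.27, and Ad-FAM3A6 and Ad-FAM3A7 held the highest of these. The count of 1 was 13 without Ad-sham3, 5 without Ad-FAM3A1 and 2 without Ad-FAM3A5, and without both Ad-FAM3A6 and Ad-FAM3A7 the median was -0.55 with 0 lower. In 18 of the 29 the middle mean was above both others.

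Interferon-stimulated genes had negative differences across the list. All 20 members had a negative difference, from -0.12 for Ifit2 to -1.43 for Mx1, with a median of -0.87, and the middle mean was above both others in 0. Ifit1, an RNA-binding antiviral protein, was at 2.61, 2.85, 4.09 and 3.41 in the high aortas and at 4.45, 4.12, 4.56 and 4.31 in the low aortas. Ifi44 was at 2.40, 2.72, 2.56 and 2.57 against 4.13, 3.17, 3.57 and 3.60 and the GTPase Gbp3 at 4.34, 4.10, 5.02 and 4.89 against 5.74, 5.36, 5.70 and 5.63. These 3 were separated in every aorta, with differences of -1.12, -1.06 and -1.02, although in Ifit1 the highest of the high aortas, Ad-sham2, came close to Ad-sham3. The count of 3 was 1 without Ad-FAM3A4, Ad-FAM3A5 or Ad-FAM3A7, 9 without Ad-sham2 and 5 without Ad-sham3. Within the labels the median was 0.08 for Ad-sham, where Ad-sham2 was the high aorta, and -1.31 for Ad-FAM3A, and this difference was not tested. Without Ad-FAM3A6 and Ad-FAM3A7 it was -0.60 with 2 lower.

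Complement and inflammatory signalling genes showed 1 lower gene each, of 17 and 23 fitted, where 2.99% of all genes fitted were lower. C3, the central complement component, was at 9.56, 9.40, 10.22 and 10.08 in the high aortas, at 8.74, 11.23, 11.26, 10.37 and 10.35 in the middle aortas and at 10.67, 10.85, 10.99 and 10.97 in the low aortas. The low aortas varied little and lay above the high ones by 2.08-fold, and the middle aortas ran from the lowest of the 13, Ad-FAM3A2, to the 2 highest, Ad-sham5 and Ad-sham4. Without Ad-FAM3A4 or Ad-FAM3A5 the difference of C3 was under the limit and 0 of 17 complement genes were lower, while 3 were lower without Ad-sham2 or Ad-sham3 and 2 without Ad-FAM3A1 or Ad-sham1. Of the other complement genes C4b differed by -0.82, and the C1q chains by 0.14, -0.34 and -0.17 for C1qa, C1qb and C1qc. Socs3, a feedback inhibitor of IL-6 family signalling, was at 3.48, 3.31, 3.28 and 3.56 in the high aortas against 5.56, 3.90, 4.42 and 4.60 in the low aortas, a difference of -1.22 with no overlap. Saa3, an acute phase protein gene, had the largest difference in size of the adhesion and signalling list, -1.72, with overlap. The adhesion molecules Vcam1 and Icam1 differed by -0.12 and 0.07 and the NF-κB subunits Nfkb1 and Rela by -0.16 and 0.40. The median of the 23 adhesion and signalling genes was -0.16, it was 0.16 without Ad-FAM3A6 and Ad-FAM3A7 and -0.41 without Ad-sham3, and 2 genes were lower without Ad-FAM3A4 or Ad-sham1.

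Metabolic genes had mostly small negative differences, and no member of these lists was counted. In the citric acid cycle all 20 genes were negative, with a median of -0.50. In all 20, and in all 28 genes of the respiratory chain, the middle mean lay below both the high and the low mean, so these genes did not follow the smooth muscle ranking. The mean of the citric acid cycle list was 8.46 in the high, 8.19 in the middle and 8.91 log2 CPM in the low aortas. Fh1, the fumarase gene, was at 7.50, 7.69, 8.36 and 7.80 in the high aortas, at 8.48, 7.73, 7.02, 7.33 and 7.85 in the middle aortas and at 8.03, 8.75, 8.95 and 7.91 in the low aortas, a difference of -0.57. The groups overlapped, since Ad-sham2 lay above Ad-FAM3A7 and Ad-FAM3A6. The smallest difference of the list was -0.10, for Suclg2. The mean of the whole list was highest in Ad-sham3 at 9.37, Ad-sham1 at 9.34, Ad-sham2 at 9.09 and Ad-FAM3A2 at 8.90, which lie at both ends of the ranking and in the middle. Without Ad-FAM3A6 and Ad-FAM3A7 the median was -0.97 and 5 genes were lower.

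Fatty acid uptake and oxidation genes had 25 of 27 negative with a median of -0.40, the respiratory chain and ATP synthase 25 of 28 with a median of -0.37, and lipogenesis and lipid droplets 21 of 24 with a median of -0.34. In the high, middle and low aortas the list mean was 7.36, 7.15 and 7.74 for fatty acids and 8.58, 8.22 and 8.90 for lipogenesis. Only 2 genes of each of these 2 lists had the middle mean between the others, so they did not follow the ranking either. The trifunctional protein gene Hadhb was at 8.98, 9.34, 10.23 and 9.23 against 9.85, 10.34, 10.77 and 9.70, and the stearoyl-CoA desaturase Scd1 at 12.52, 13.37, 13.53 and 13.18 against 13.84, 13.88, 15.11 and 13.60. Hadhb overlapped, with a difference of -0.72, and Scd1 was separated by a narrow gap between Ad-sham2 and Ad-FAM3A6, with a difference of -0.96. Sdhb of complex II differed by -0.61. In glycolysis 15 of 20 were negative with a median of -0.21, and the glucose transporter Slc2a1 was 0.86 higher with no overlap, while Gapdh differed by 0.23. Aldoc, an aldolase, was the exception in size, at -1.19, -0.82, 0.28 and 2.28 against 1.87, 3.76, 2.62 and 2.61, a difference of -2.58 with overlap, since Ad-FAM3A1 lay above Ad-FAM3A7. The 24 ribosomal protein genes had a median of 0.05, which was 0.23 without Ad-FAM3A6, -0.03 without Ad-sham1 and 0.33 with Ad-FAM3A2 in place of Ad-FAM3A1. Ucp1, the uncoupling protein of brown fat, was at 9.0, 9.31, 10.69 and 9.26 in the high aortas and at 7.85, 11.10, 10.33 and 8.59 in the low aortas and showed no order. These medians moved with single aortas, to -0.65 without Ad-sham2 and -0.23 without Ad-sham1 for fatty acid oxidation, to -0.64 without Ad-sham2 and -0.22 without Ad-sham3 for the respiratory chain, to -0.60 without Ad-sham2 and -0.05 without Ad-sham3 for lipogenesis, and to -0.47 without Ad-sham2 and 0.05 without Ad-sham3 for glycolysis. Without Ad-FAM3A6 and Ad-FAM3A7 they were -0.89 with 8 genes lower for fatty acid oxidation, -0.88 with 2 lower for the respiratory chain, -1.02 with 8 lower for lipogenesis, and -0.77 with 2 lower and 1 higher for glycolysis.

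**Figure D4:**
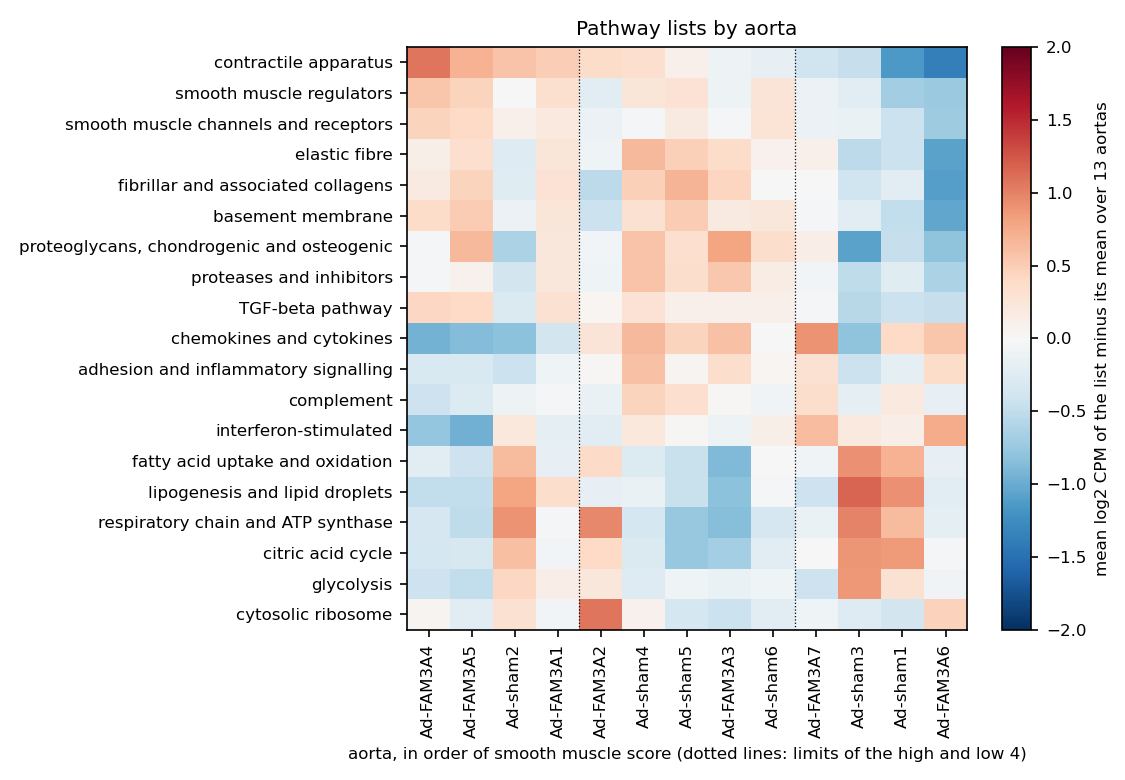
Mean log2 CPM of each pathway list in each aorta, minus the mean of that list over the 13 aortas, as a heat map with aortas in order of the smooth muscle score. The contractile list declines from left to right. Matrix lists have their lowest group mean in the low aortas, but the low aorta Ad-FAM3A7 lies above the high aorta Ad-sham2 in each. The fatty acid oxidation, respiratory chain, citric acid cycle and glycolysis lists lie above their means in Ad-sham2, Ad-FAM3A2, Ad-sham3 and Ad-sham1.

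Fat is a tissue that surrounds the aorta, and its markers were present in every aorta. The 10 adipocyte markers had 7 negative and 3 positive differences with a median of -0.36, and their mean ran from 6.35 to 8.23 log2 CPM in the high aortas and from 6.98 to 8.21 in the low aortas, with no marker at 0. The 10 brown adipocyte markers had a median of -0.24, with means of 5.37 to 6.96 against 5.15 to 6.97. Without Ad-FAM3A5 the medians were -0.02 and 0.14, without Ad-sham3 they were -0.12 and 0.17, without Ad-sham2 they were -0.61 and -0.60, and without Ad-FAM3A6 and Ad-FAM3A7 they were -0.85 and -0.88. The part of adhering fat in the metabolic differences was not tested.

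Lymphocyte markers differed among the low aortas. The 10 B-cell markers were all negative with a median of -2.07 and 2 lower, and their mean stood at 7.55 in Ad-FAM3A6 and at 6.16 in Ad-FAM3A7, the other 11 aortas running from 0.98 to 3.02. Jchain, the joining chain of secreted antibodies, was at 0.70, 2.27, 1.57 and 3.65 in the high aortas and at 8.53, 3.88, 5.29 and 10.55 in the low aortas, and Ighm, the heavy chain of IgM, at 4.84, 5.20, 5.49 and 6.51 against 11.07, 7.12, 7.81 and 12.69. Neither overlapped, and the largest values were those of Ad-FAM3A6 and Ad-FAM3A7. The 10 T-cell markers had a median of -1.85 with 1 lower, Tcf7, and means of 0.17 to 1.59 in the high aortas, 0.96 to 3.96 in the middle aortas and 0.76 to 5.78 in the low aortas. Without Ad-FAM3A6 the medians were -1.13 for B cells and -0.83 for T cells, and without both Ad-FAM3A6 and Ad-FAM3A7 they were 0.09 and -0.07, so both medians rest on these 2 aortas. Without both, 2 B-cell markers were still lower, as with all 8 aortas, and 0 T-cell markers were. No marker of either list was at 0 in any of the 8 aortas, and the part of lymphocytes in the interferon and chemokine differences was not tested.

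Macrophage markers did not follow the ranking as closely. Of 16 fitted, 14 were negative with a median of -0.45, 0 were counted and 12 had the middle mean above both others, with means of 4.54 to 5.54 in the high, 5.19 to 6.33 in the middle and 4.65 to 6.0 in the low aortas. Lyz2, lysozyme of myeloid cells, was at 8.48, 9.16, 8.73 and 10.12 in the high aortas, at 11.47, 10.45, 9.15, 9.79 and 9.17 in the middle aortas and at 10.35, 8.94, 9.69 and 10.83 in the low aortas, and its highest value of all was in the middle aorta Ad-FAM3A2. Itgam (CD11b) was at 2.63, 2.67, 2.57 and 2.43 against 3.57, 3.44, 3.43 and 3.25, which did not overlap, with a difference of -0.85 that stayed under the limit, and Aif1, which encodes the macrophage protein IBA1, differed by -1.57 with overlap. The list median was -0.77 without Ad-sham3 and -0.27 without Ad-FAM3A4 or Ad-FAM3A7.

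Stromal and endothelial markers had small positive medians, with 0 counted in either list. The 12 fibroblast markers had a median of 0.52 (0.26 without Ad-FAM3A6), led by Clec3b at 1.26, and Pdgfra differed by 0.35 and Lum by -0.01. The 12 endothelial markers had a median of 0.30, with 0.84 for Pecam1, 0.77 for Vwf and -0.05 for Cdh5, and 9 of them had the middle mean above both others.

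Sympathetic nerve transcripts had the largest list median in size. The 11 sympathetic neuron markers were all negative with 5 lower and a median of -3.09, and their mean was 1.73 to 5.44 in the high aortas, 0.00 to 7.64 in the middle aortas and 5.35 to 7.07 in the low aortas. Dbh, dopamine β-hydroxylase, which makes noradrenaline, was at 2.83, 2.92, 1.42 and 6.51 in the high aortas, at 3.21, -3.02, 8.72, 8.90 and 7.28 in the middle aortas and at 6.52, 8.44, 7.21 and 7.01 in the low aortas. Here -3.02 stands for 0 counts. Among the high aortas Ad-FAM3A1 stood apart and lay just below Ad-FAM3A7, and the middle aortas ran from the lowest value to the highest of the 13. The noradrenaline transporter Slc6a2 differed by -3.68 and the nicotinic receptor subunit Chrna3 by -3.64, while Th, tyrosine hydroxylase, differed by -3.67 with overlap. The count of 5 was 10 without Ad-FAM3A1 and 9 without Ad-FAM3A7, and was 10 with Ad-FAM3A2 in place of Ad-FAM3A1. Schwann cell markers had a median of -1.06, with 8 of 10 negative and 0 lower, which was 5 without Ad-FAM3A1 and 1 without Ad-sham1.

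Markers of other organs were detected at uneven levels among the aortas. Of 10 cardiac markers 5 passed the filter, all negative with a median of -2.23, and their mean was 5.58 in Ad-sham1, 5.03 in Ad-FAM3A6 and 3.73 in Ad-sham3 against 0.84 to 2.23 in the other 10 aortas. Myh6, the atrial myosin heavy chain, was at 0.81, -0.65, -0.58 and -1.24 in the high aortas and at 0.94, 4.88, 6.69 and 6.30 in the low aortas. It was separated by a narrow gap between Ad-FAM3A4 and Ad-FAM3A7, while the other 3 low aortas were far above, and 5 cardiac markers were lower without Ad-FAM3A7. Of 10 cardiac markers 4 had no count in some high aorta and 2 in some low aorta. Kidney markers were at 0 in all 4 high aortas for 5 of 10, and the mean of the 6 fitted was -2.06 to -1.13 in the high, 0.86 to 4.82 in the middle and -1.43 to 3.25 in the low aortas. The kidney median was -2.20, or -0.97 without Ad-sham3. Liver markers had a median of 1.89, with 3 of 10 at 0 in some high aorta and 5 in some low aorta, and 1 higher, Ahsg, a plasma protein gene, at 1.89, while 4 were higher without Ad-sham3 and the median was 1.12 without Ad-FAM3A1. The 6 mesothelial markers fitted had a median of -1.89, or -1.12 without Ad-sham3, where the list mean was highest at 4.13, and the 9 skeletal muscle markers a median of -0.65, which moved between -0.04 without Ad-FAM3A5 and -1.29 without Ad-FAM3A1. The part of such tissue in any difference was not tested.

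**Figure D5:**
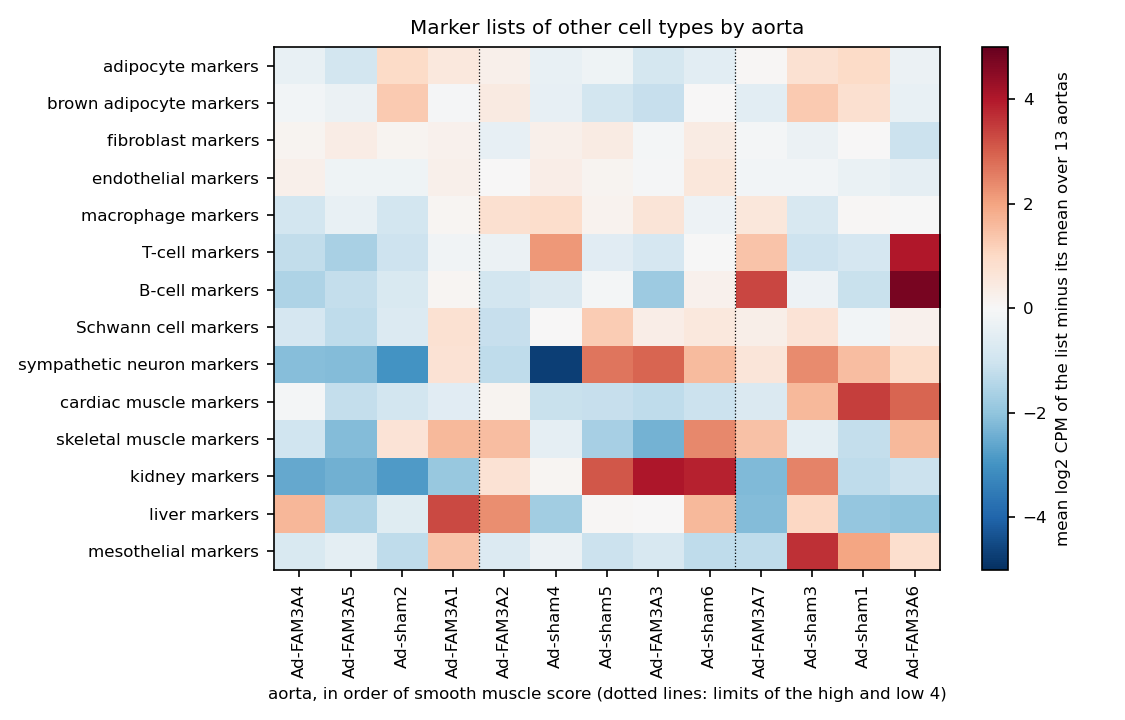
Mean log2 CPM of each cell type list in each aorta, minus the mean of that list over the 13 aortas, as a heat map with aortas in order of the smooth muscle score. B-cell markers stand out in Ad-FAM3A6 and Ad-FAM3A7, cardiac markers in Ad-sham1, Ad-FAM3A6 and Ad-sham3, and sympathetic markers are lowest in Ad-sham4, in 3 of the 4 high aortas and in Ad-FAM3A2.

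The genes with the largest differences were named by size among counted genes with a mean above 3 log2 CPM. Besides Ppp1r14a and Lmod1, the 10 largest that were higher held Scube3 at 2.18, Sost at 2.14, Grip2 at 2.10, Stum at 2.09, Optc at 2.23, Mylk2 at 2.07, the processed transcript Gm830 at 2.43 and Hba-a2 at 2.16. Sost, which encodes the Wnt inhibitor sclerostin, was at 9.0, 9.36, 9.62 and 8.97 in the high aortas and at 8.26, 7.97, 6.36 and 5.81 in the low aortas. Scube3, a secreted signalling protein, was at 8.55, 8.28, 8.29 and 8.06 against 6.89, 6.98, 5.40 and 5.18. In both genes Ad-FAM3A6 was the lowest of the 8 aortas. Hba-a2 is a haemoglobin gene of red blood cells with a near-identical copy, so its count is uncertain. The 10 largest that were lower were the antibody genes Jchain, Igkc and Ighm, genes known from neurons, namely the neurofilament Nefl at -4.19, the synaptic vesicle genes Rab3c at -4.12 and Sv2c at -3.96, Dbh and secretogranin Scg2 at -3.81, and also Slc7a14 at -4.41 and Disp2 at -3.81. Antibody genes share reads among family members and are uncertain too.

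Between the virus labels, over all 13 aortas, 0 of 15811 genes (0%) passed both an adjusted p of 0.05 and a log2 fold change beyond 1 in either direction in the edgeR quasi-likelihood test, whose smallest adjusted p was 0.810. An unadjusted p below 0.05 was reached by 934 genes, 471 higher in Ad-FAM3A (2.98%) and 463 lower (2.93%), and DESeq2 with its defaults called 10 genes, 9 higher and 1 lower. With the smooth muscle score as a covariate the edgeR test called 0 genes, with a smallest adjusted p of 0.644 and 1185 genes at an unadjusted p under 0.05. With the adipocyte marker score as the covariate it also called 0, with a smallest adjusted p of 0.982 and 542 genes at that unadjusted p. Among the 30 contractile genes 2 were higher and 1 lower at an unadjusted p under 0.05, and the median log2 fold change of the list was 0.26 and -0.05 with the score in the model. All 10 B-cell markers were higher in Ad-FAM3A at that threshold, where Ad-FAM3A6 and Ad-FAM3A7 carried the high values. Of the metabolic lists 15 of 24 lipogenesis genes and 8 of 27 fatty acid oxidation genes were lower in Ad-FAM3A at it, and of the matrix lists 3 of 18 TGF-β pathway genes were higher. Adipocyte markers moved with the metabolic lists, with a median log2 fold change of -0.54 and 3 of 10 lower at that threshold, and brown adipocyte markers with -0.66 and 4 of 10. The part of fat in these label differences was not tested for single lists. With the smooth muscle score in the model the counts were 3 for B-cell markers, 12 for lipogenesis, 5 for fatty acid oxidation and 0 for the TGF-β pathway. None of these genes passed the adjustment over all genes in either model.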

How the data were processed

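Reads passing the authors' quality filter were mapped to GRCm38 (Hisat2) and counted per Ensembl gene (FeatureCounts). The deposited counts are whole numbers, not normalized, with 1 column per aorta. The annotation release, strand setting and treatment of reads with several matches are not given in the sources used here. The labels name an RNeasy extraction and a SMARTER library, whereas the study's methods name TRIzol and an NEB kit. A second table of FPKM means per virus, as deposited, has no value per aorta and was not used.

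Counts were filtered with filterByExpr, scaled by TMM and expressed as log2 CPM with a prior count of 2 in edgeR 4.0.16 (R 4.3.3). Aortas were ranked by the mean of Myh11, Acta2 and Cnn1, and the 4 highest and 4 lowest were compared by means and by whether groups overlapped, with no test. The virus label was tested by an exact permutation of the score and by edgeR's quasi-likelihood test over 15811 genes with Benjamini-Hochberg adjustment, with DESeq2 1.42.0 as an alternative. The test was tried on simulated counts with known changes. The members and gene lists were chosen with earlier results of these data known. Named genes are the score genes, members of the lists (up to 6 with the largest differences plus defining members), Fam3a, and the 10 genes per direction with the largest difference among counted genes above 3 log2 CPM on average. Some further list members are given for their known role. Floors of 3 counts cover counting error only. The highest correlation between aortas was 0.969, so no column was a copy of another. A shared source of 2 samples cannot be judged from this value alone. Alternatives covered scaling, filters, the prior count, the score genes, the number of aortas per end, each virus alone and each aorta left out, and 2 more were added after seeing the data.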

Additional observations from a re-analysis of the deposited data

Results flagged for a closer look

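Of 78 groups of 6 or 7 values examined, 5 held an aorta far from the others of its virus, where chance alone gives about 1 in 20, or 3.9. The elastic fibre list averaged 6.01 log2 CPM in Ad-FAM3A6, whereas the remaining Ad-FAM3A aortas ran from 6.99 to 7.44. The cardiac muscle list was 5.03 in Ad-FAM3A6 against 0.84 to 2.23. The hypoxia and apoptosis list was 4.89 in Ad-FAM3A2 against 4.30 to 4.49. The T-cell list was 3.96 in Ad-sham4 against 0.74 to 1.77 in the other Ad-sham aortas. Total counts were 19797407 in Ad-sham5 against 15588507 to 17097928.

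In 2 of 36 lists the high and low aortas were separated in both viruses but in opposite directions, by the mean log2 CPM of the list. For interferon-stimulated genes the high minus low difference was 0.046 in Ad-sham and -1.31 in Ad-FAM3A, and for hypoxia and apoptosis it was 0.17 in Ad-sham and -0.13 in Ad-FAM3A. The Ad-sham value compares 1 high aorta with 2 low ones, and the difference between the viruses was not tested. By the median, hypoxia and apoptosis had the same sign in both, 0.20 in Ad-sham and 0.09 in Ad-FAM3A. Other lists had medians of opposite sign, such as 0.36 in Ad-sham and -4.40 in Ad-FAM3A for B-cell markers and 1.70 and -1.99 for skeletal muscle markers. In these 2 lists aortas overlapped in at least 1 virus.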

How the results depend on the processing

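Genes counted as higher numbered 585 and as lower 472. With libraries scaled to their totals alone, which also put Ad-sham6 in place of Ad-FAM3A7 among the low aortas, 381 were higher. With 3 aortas per end 927 were higher and 1158 lower, and with 5 per end 282 were higher. Within Ad-sham 945 were higher and 1391 lower, and within Ad-FAM3A 1052 and 1571, where fewer aortas per end separate more easily. A score of 6 genes put Ad-FAM3A2 in place of Ad-FAM3A1 and gave 857 lower, as did that exchange alone, an alternative added after seeing the data. Without Ad-FAM3A6 and Ad-FAM3A7, also added, 947 were lower and 799 higher. Leaving out 1 aorta gave 495 to 831 higher and 468 to 1065 lower. Of 12989 other values, 12537 moved by less than the spread between aortas, 452 by more, and 0 changed direction among counted genes. That 0 was largely set by the counting rule, which places every high aorta on the same side of every low aorta. Alternatives that only leave aortas out, such as 3 per end or each virus alone, cannot change the sign of a counted gene. Some genes that were not counted did change sign under alternatives, such as Cox4i1 and Gapdh.

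For the virus label, DESeq2 with its defaults called 10 genes where edgeR called 0 with each aorta left out (smallest adjusted p 0.558 to 0.999) and under each other alternative run. The score difference was 0.0809 to 0.646 with each aorta left out (exact permutation p from 0.134 to 0.883). With the replicate number as a block the score difference was 0.42 (exact permutation p = 0.4375, 6 pairs) and edgeR called 0 genes. The labels share only the number: the deviations of same-numbered aortas correlated from -0.33 to 0.45, 3 of 6 above 0.1, and an aorta correlated best with its own number in 1 of 6. At 14481179 to 19797407 counts per aorta, genes near 0.152 to 0.207 CPM rest on 3 counts, and differences in the low kidney, liver and cardiac markers are limited by that.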

Other observations

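Lists outside the contractile, matrix, inflammatory and metabolic groups also differed between the high and low aortas, and as the members were chosen on these aortas no test is given. Cell division genes were all negative, 15 of 15, with a median of -1.54 and 0 counted. Mki67, a marker of cycling cells, was at 3.06, 2.97, 3.31 and 3.48 log2 CPM in the high aortas, at 3.89, 5.39, 4.74, 4.93 and 3.33 in the middle aortas and at 5.36, 2.55, 4.05 and 7.56 in the low aortas. The high aortas were alike, while the low ones held both the lowest value, in Ad-sham3, and the highest, in Ad-FAM3A6. Without Ad-sham3, 14 of the 15 were lower, without Ad-FAM3A6 the median was -0.78, and without both Ad-FAM3A6 and Ad-FAM3A7 it was -0.40. Those 2 aortas also held the highest B-cell marker means, 7.55 and 6.16 log2 CPM, and the part of lymphocytes in this difference was not tested.

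Immediate-early and heat shock genes, which respond to stress and to handling of tissue, were all positive, 14 of 14, with a median of 0.75 and 1 higher. The list mean ran from 6.27 to 7.04 in the high, 5.75 to 6.24 in the middle and 5.51 to 6.07 in the low aortas, so it separated the high aortas from the 9 others. Jun was at 6.71, 6.40, 7.73 and 7.35 in the high aortas and at 5.80, 6.18, 6.22 and 5.86 in the low aortas, a difference of 1.03. It was the counted gene, and 0 were counted without Ad-FAM3A1, Ad-FAM3A6 or Ad-FAM3A7. The chaperone genes Hspa1a and Hspa1b, which are near-identical copies and so uncertain, differed by 1.11 and 1.21 with overlap. The part of tissue handling in the differences between high and low aortas was not tested.

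Genes of hypoxia and apoptosis had 7 positive and 6 negative differences with a median of 0.09 and 0 counted. Single aortas changed the sign of this median, which was -0.10 without Ad-FAM3A7 and 0.18 without Ad-sham3. Cdkn1a, the cell cycle inhibitor p21, differed by 0.82 and Vegfa by -0.52, both with overlap.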
